A study of Mus musculus with 764 samples.

Results

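A set of 10 genes of programmed cell death and survival was followed in single IL-10-producing CD4+ T cells. They are Bcl2, Bcl2l1, Mcl1, Bcl2l11, Bax, Bak1, Fas, Fasl, Cflar and Casp8, chosen by name, and each has 1 row among the 23997 gene rows of the count tables. The cells came from mice that carry an eGFP reporter for IL-10 and an mRFP reporter for Foxp3 and were given anti-CD3 antibody. They were sorted as CD4+ cells with the IL-10 reporter from small intestine or spleen, Foxp3+ cells included as a control. Single cells were sequenced with SMART-seq2, a plate method that reads the length of polyadenylated transcripts. Both tissues share the reporter alleles and the treatment, and no untreated cells are among the samples. The IL-10 reporter defines the cells, so the values describe sorted reporter-positive cells and not all CD4+ T cells of a tissue.

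Labels gave 764 cells, of which 190 came from small intestine and the others from spleen. The spleen cells fall into 3 sets by plate and well column. Columns 1 to 12 of plate p1 and columns 1 to 12 of plate p2 were filled in all 16 rows, and columns 13 to 24 of plate p1 gave 190 cells. All small intestine cells lay on plate p2, so the spleen p2 set is the comparison within a plate. Labels name no animal, so each tissue counts as 1 sample, the spleen sets show the spread between well sets only, and no test between tissues was possible. Every run of 4 values below takes small intestine first, then spleen p1 columns 1 to 12, spleen p1 columns 13 to 24 and spleen p2. Shallow cells, numbering 19, 12, 6 and 13, and cells called S or G2M, numbering 34, 47, 39 and 57, were removed. The kept cells were 72.1%, 69.3%, 76.3% and 63.5% of each set, 400 of them from spleen, with median totals of 324546, 366140, 362505 and 315920 reads. The T cell markers Cd3e, Cd3d, Cd3g and Cd4 reached 10 reads in at least 97.9% of kept cells in every set. Of the CD8 T cell markers, Cd8a had 10 reads in 19.7% of small intestine cells and at most 0.752% of a spleen set, while Cd8b1 had 10 reads in 5.84%, 14.3%, 10.3% and 9.84%. B cell markers reached at most 8.03% of cells (Cd79b, small intestine), myeloid markers 3.45%, natural killer cell markers 2.46% and epithelial markers 13.5% (Epcam, spleen p1 columns 1 to 12). Ms4a1, a defining B cell marker, had no read in any kept small intestine cell, which allows a share of up to 2.19%. The sets differed in Foxp3, which marks regulatory T cells, with at least 1 read in 6.57%, 63.9%, 17.9% and 6.56% of kept cells. Il10 itself had at least 10 reads in 95.6%, 87.2%, 82.1% and 59.8%.

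Cells die by apoptosis along an intrinsic and an extrinsic route. In the intrinsic route, BAX and BAK open the outer mitochondrial membrane, BCL-2, BCL-XL (from Bcl2l1) and MCL-1 hold them in check, and BH3-only proteins such as BIM (from Bcl2l11) release that check. In the extrinsic route, FAS ligand (from Fasl) binds FAS, the receptor gathers caspase-8 through an adaptor, and c-FLIP (from Cflar) restrains the caspase. In T cells, BIM and FAS are known for removing activated cells after a response, and BCL-2 for long-lived resting and memory cells.

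Of the 10 genes, Fasl and Bcl2l11 were higher and Fas was lower in small intestine than in every spleen set by at least 2-fold. The limit of 2-fold is a log2 ratio of 1 or -1 between mean counts per 1000000 reads (CPM, with 1 added), centred on the median of the 8360 genes with a mean of at least 10 CPM over the tissues. All 10 genes passed that filter. Over all 8360 genes, 6.21% were higher and 7.12% lower by this rule. A looser description asks only whether the small intestine mean lay outside the 3 spleen means. It lay above them for Mcl1, Bcl2l11 and Fasl and below them for Bax, Bak1 and Fas, while 24.9% of all tested genes lay above and 44.2% below. For Bcl2, Bcl2l1, Cflar and Casp8 the small intestine fell within the range of the spleen sets. The median centred log2 ratio of the 10 genes against all spleen cells was 0.19, where the median of all tested genes is 0 by construction.

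**Figure D1:**
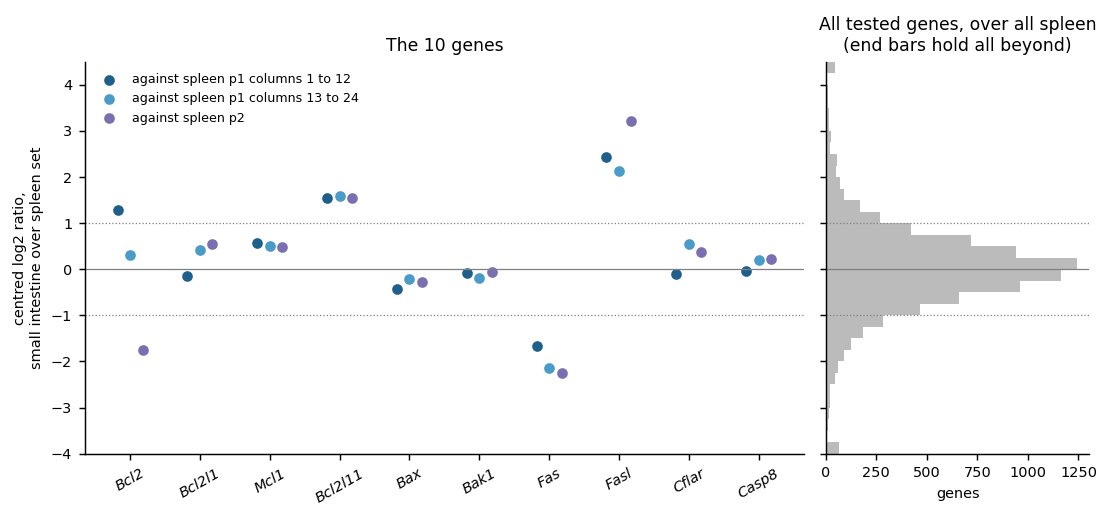
Centred log2 ratio of small intestine mean CPM over each spleen set for the 10 genes (left, colours for the 3 sets) and the number of genes at each ratio over all spleen cells (right, all 8360 tested genes). Fasl and Bcl2l11 lie above the upper dotted line of 1 and Fas below the lower line of -1 against every set, while the 3 points of Bcl2 spread from 1.28 to -1.75.

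The promoters of these 3 genes are shown because their transcripts separated the tissues. Each covers 300 bases around an annotated start, from RefSeq on GRCm38.p6, and the 10 genes matched 13 such windows. Capitals mark letters found on either strand by a search for the AP-1 motif TGANTCA, the forkhead motif TGTTTAC, the NFAT core GGAAA and the TCF motif CTTTGAT. The NFAT core also occurs inside longer motifs, and no 2 of the marked matches overlap. The Fasl window lies at chr1:161788446-161788745 on the minus strand, the Fas window at chr19:34290409-34290708 on the plus strand and the first of 2 Bcl2l11 windows at chr2:128125788-128126087 on the plus strand.
Fasl: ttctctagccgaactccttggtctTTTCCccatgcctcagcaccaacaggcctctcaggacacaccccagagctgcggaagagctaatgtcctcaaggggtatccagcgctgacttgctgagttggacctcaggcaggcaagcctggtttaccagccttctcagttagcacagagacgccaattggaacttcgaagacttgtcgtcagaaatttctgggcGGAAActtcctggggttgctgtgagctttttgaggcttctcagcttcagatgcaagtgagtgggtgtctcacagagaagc
Fas: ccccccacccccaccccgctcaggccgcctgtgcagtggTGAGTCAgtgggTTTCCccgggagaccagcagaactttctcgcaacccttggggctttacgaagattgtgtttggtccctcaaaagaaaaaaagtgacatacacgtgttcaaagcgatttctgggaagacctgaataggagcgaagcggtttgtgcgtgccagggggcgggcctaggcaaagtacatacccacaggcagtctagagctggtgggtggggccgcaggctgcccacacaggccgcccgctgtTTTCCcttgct
Bcl2l11: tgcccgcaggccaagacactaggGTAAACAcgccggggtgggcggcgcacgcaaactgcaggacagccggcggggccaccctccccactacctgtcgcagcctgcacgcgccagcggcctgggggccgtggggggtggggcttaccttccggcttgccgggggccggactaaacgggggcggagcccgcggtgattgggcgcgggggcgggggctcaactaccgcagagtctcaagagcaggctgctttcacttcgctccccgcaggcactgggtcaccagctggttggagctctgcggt
The forkhead letters occurred in the first Bcl2l11 window and in 3.65% of all 32851 promoters, and the AP-1 letters in the Fas window and in 7.81% of all promoters. The Fasl and Fas windows each held 2 NFAT cores, a motif found in 61.3% of all promoters and in 10 of the 13 windows. TCF letters were in none of the 13 windows and in 3.73% of all promoters. The windows of Fasl and Fas and the first Bcl2l11 window were 53.3%, 59% and 71% G and C, beside a median of 52.7% over all promoters. The second Bcl2l11 window, not printed, was 74% G and C and held no match to any of the motifs searched. A match describes letters, not a bound site.

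Fasl and Fas, the ligand and receptor of the extrinsic route, lay in opposite directions. Fasl, the death ligand of cytotoxic and activated T cells, averaged 429.8 CPM per small intestine cell and 89.5, 111.5 and 52.8 CPM per spleen cell. Its small intestine values ran from 0 through a median of 228.4 to 2912 CPM, and the median spleen cell of every set had no read. Centred log2 ratios were 2.43, 2.13 and 3.21 against the 3 spleen sets in order. At least 10 Fasl reads were found in 58.4% of small intestine cells (exact binomial 95% interval 49.7% to 66.7%), and in 15.8%, 22.1% and 13.9% of spleen cells, where the highest upper bound was 29.7%. Single cells overlapped between the tissues, because Fasl-positive spleen cells existed in each set and reached 1583 CPM. Among cells with 10 or more reads the mean was 735.5 CPM in small intestine and 564.8, 503.9 and 376.05 CPM in spleen, so both the share of positive cells and the level in them were higher in small intestine. Summed reads were 19139 in small intestine (exact Poisson interval 18869 to 19412) and 4343, 5649 and 2213 in spleen. All such intervals cover counting error only, since reads amplified by PCR without molecular identifiers are not independent molecules.

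Fas, the death receptor, averaged 27.3 CPM in small intestine but 101.3, 141.8 and 153.7 CPM in spleen. The median cell had no read in every set, and the highest values were 686.5 CPM in small intestine and 1580, 1950 and 1847 CPM in spleen. Centred log2 ratios were -1.68, -2.14 and -2.25. The share with 10 or more reads was 9.49% in small intestine (5.15% to 15.7%) and 26.3%, 35.2% and 36.9% in spleen, where the lowest lower bound was 19.1%. With cells holding a Foxp3 read left out, the shares were 8.59% in small intestine and 20.8%, 37.8% and 38.6% in spleen, and the small intestine interval then overlapped that of p1 columns 1 to 12, which kept 48 cells. Among positive cells alone, Fas averaged 281.2 CPM in small intestine and 382.5, 402.1 and 415.4 CPM in spleen. The small intestine interval of the Fas share lay below all 3 spleen intervals, as it did for 5.51% of all tested genes. The small intestine intervals of the Fasl and Bcl2l11 shares lay above those of all 3 spleen sets, as did those of 3.95% of tested genes.

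The ligand and the receptor were also counted together in each cell. Such joint shares follow in part from the share of each gene alone, and shares expected without a link were not computed. Fasl without Fas, at 10 reads each, was found in 51.8% of small intestine cells (43.1% to 60.4%) and in 14.3%, 18.6% and 11.5% of spleen cells. Fas without Fasl was found in 2.92% of small intestine cells (0.801% to 7.31%) and in 24.8%, 31.7% and 34.4% of spleen cells. Both were present in 6.57%, 1.5%, 3.45% and 2.46%, or 9, 2, 5 and 3 cells. In small intestine, where Fas was rare, 4 cells had Fas without Fasl and 9 had both. Within sets, Spearman correlations between the CPM of Fas and Fasl were 0.14 in small intestine and -0.11, -0.22 and -0.16 in spleen, over the kept cells of each set, a description of cells that share a plate. In p1 columns 1 to 12, Fasl had 10 reads in 9.41% of the 85 cells with a Foxp3 read and in 27.1% of the 48 cells without, and in p1 columns 13 to 24 the shares were 7.69% of 26 cells and 25.2% of the others. With all cells holding a Foxp3 read left out, the centred log2 ratio against spleen was 2.21 for Fasl and -2.21 for Fas. CD8 markers also differed between tissues, in opposite directions by share (Cd8a more often found in small intestine, Cd8b1 in every spleen set). Their mean summed level was 527.8 CPM in small intestine and 80.2, 16.6 and 24.4 CPM in spleen, and the part of such cells in the Fasl value was not tested.

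**Figure D2:**
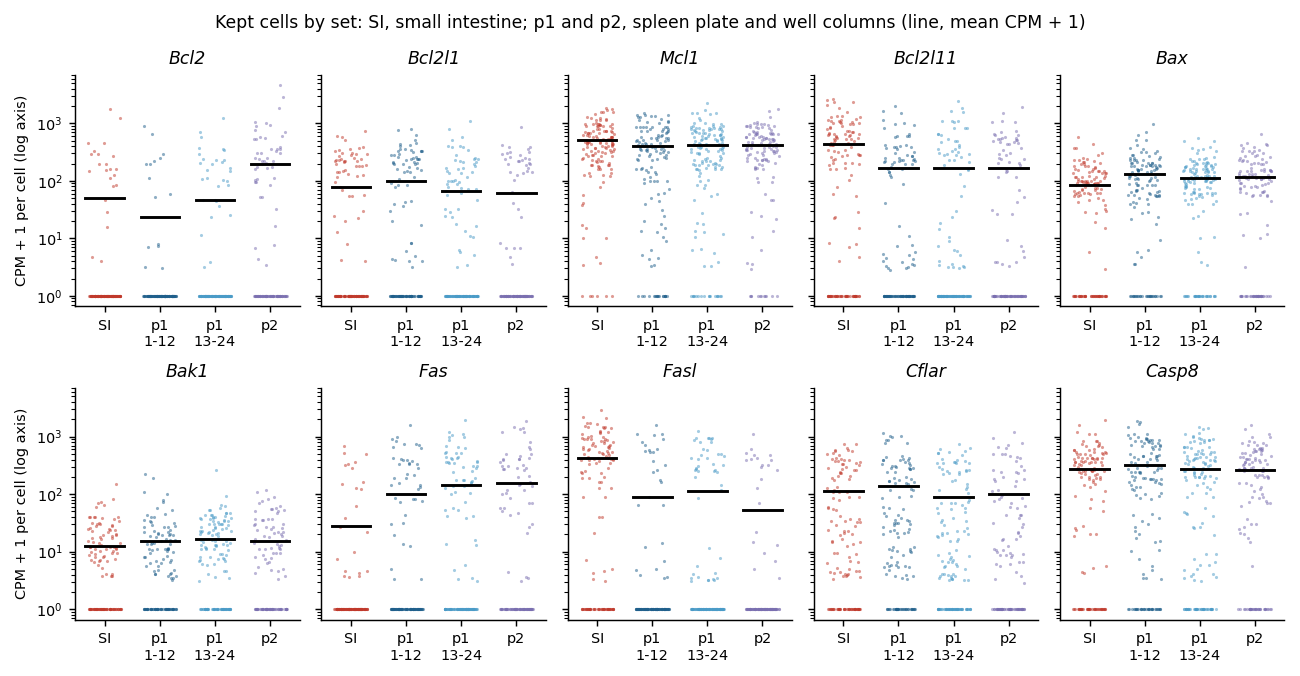
CPM of the 10 genes in each kept cell, plotted as CPM + 1 on a log axis, with 1 point per cell and a black line at the mean of each set (SI, small intestine, then the 3 spleen sets). Cells without a read sit at the bottom of each panel, and the mean of Fasl is 429.8 CPM in small intestine beside 89.5, 111.5 and 52.8 CPM in spleen.

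Downstream of the receptor, Casp8 and Cflar did not separate the tissues. Casp8, the initiator caspase, averaged 270.9 CPM in small intestine and 316.3, 270.2 and 266.4 CPM in spleen, with 10 or more reads in 63.5%, 64.7%, 59.3% and 65.6% of cells. Centred log2 ratios were -0.04, 0.20 and 0.23. Cflar, which encodes the caspase-8 inhibitor, averaged 111.8, 136.4, 87.2 and 99.4 CPM and had 10 reads in 40.9%, 45.1%, 35.2% and 33.6% of cells. The interval of the small intestine share, 32.6% to 49.6% for Cflar and 54.9% to 71.6% for Casp8, held all 3 spleen shares in both cases. Casp8 without Cflar was counted in 38%, 35.3%, 39.3% and 41.8% of cells.

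**Figure D3:**
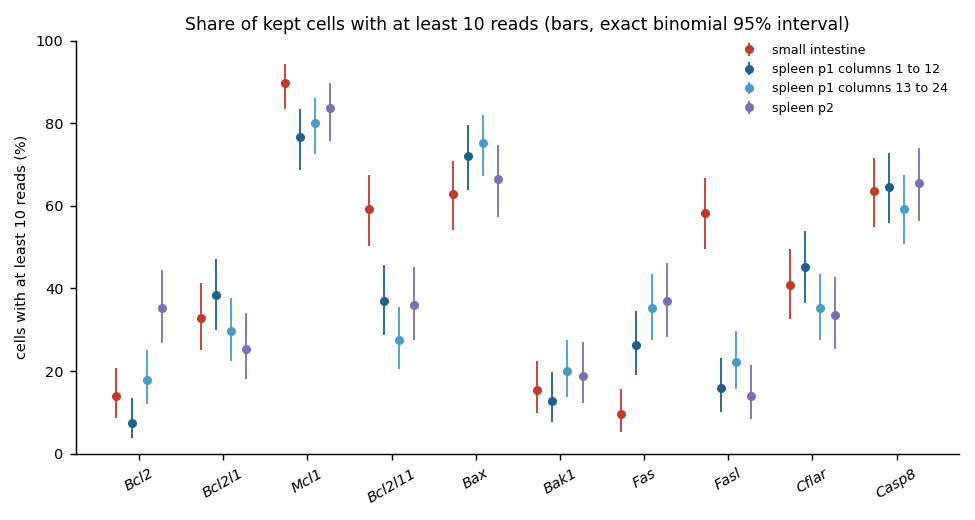
Share of kept cells with at least 10 reads of each gene (percent), for small intestine and the 3 spleen sets, with points for the share and bars for its exact binomial 95% interval. Small intestine lies above all spleen intervals for Fasl (58.4%) and Bcl2l11 (59.1%) and below them for Fas (9.49%).

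On the intrinsic route, Bcl2l11 stood out. Bcl2l11, whose product BIM binds the pro-survival proteins, averaged 427.5 CPM in small intestine while the spleen sets had 164.8, 163.1 and 168.4 CPM and differed from each other by no more than 1.03-fold. The median small intestine cell had 205.4 CPM (range 0 to 2614), and the spleen medians were 1.86, 0 and 0 CPM with highest cells of 2025, 2446 and 1887 CPM. Centred log2 ratios were 1.55, 1.58 and 1.54. At least 10 reads were found in 59.1% of small intestine cells (50.4% to 67.4%) and in 36.8%, 27.6% and 36.1% of spleen cells, with a highest upper bound of 45.6%. Positive cells averaged 721.6 CPM in small intestine and 445.8, 588.4 and 464.9 CPM in spleen. Leaving out cells with a Foxp3 read gave a centred log2 ratio of 1.66 and shares of 60.9% in small intestine and 37.5%, 26.9% and 36.8% in spleen, with overlapping intervals for small intestine and p1 columns 1 to 12.

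Mean CPM of both pore-forming effectors was lowest in small intestine, by less than 2-fold. Of all tested genes, 44.2% likewise lay below all 3 spleen means. Without cells holding a Foxp3 read, Bak1 no longer lay below them. Bax averaged 84 CPM in small intestine and 128.7, 111.2 and 116.9 CPM in spleen, with centred log2 ratios of -0.43, -0.20 and -0.27. Its shares with 10 or more reads were 62.8%, 72.2%, 75.2% and 66.4%, and the small intestine interval of 54.1% to 70.9% held the p2 share. Bak1 was sparse, with means of 11.6, 14.1, 15.4 and 14.1 CPM, centred log2 ratios of -0.09, -0.19 and -0.06 and shares of 15.3%, 12.8%, 20% and 18.9%. Many Bak1 cells lay near the limit of 10 reads: with each cell thinned to 200000 reads the shares were 3.79%, 6.25%, 8.03% and 10.7%. Without regard to strand, reads of Bak1 cannot be told from those of Ggnbp1 on the opposite strand, which averaged 0.832 CPM, and Bax and Bcl2 each overlap a gene that has no row.

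Among the pro-survival genes, Mcl1 was found in most cells and Bcl2 was uneven. Mcl1, needed by T cells throughout their life, had 10 or more reads in 89.8%, 76.7%, 80% and 83.6% of cells. Its mean was 516.1 CPM in small intestine and 394.6, 419.9 and 422.7 CPM in spleen, with medians of 430.6, 320, 335.6 and 360.1 CPM and centred log2 ratios of 0.57, 0.49 and 0.49. The small intestine share interval, 83.4% to 94.3%, held the p2 share of 83.6%. Bcl2l1, which activated T cells induce, averaged 78.6 CPM in small intestine and 99.5, 66.9 and 61.6 CPM in spleen, with 10 or more reads in 32.8%, 38.3%, 29.7% and 25.4% of cells.

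Bcl2 differed more between the spleen sets than between the tissues. It averaged 48.6 CPM in small intestine and 22.1, 44.7 and 191.4 CPM in spleen, an 8.67-fold range among spleen sets, and 0.849% of all tested genes had at least that log2 range. The median cell had no read in every set, and the highest cells were at 1808, 896.4, 1254 and 4624 CPM. Shares with 10 or more reads were 13.9% (8.56% to 20.8%), 7.52% (3.66% to 13.4%), 17.9% (12.1% to 25.2%) and 35.2% (26.8% to 44.4%), so the p2 interval lay above the other 3. Against p2 the centred log2 ratio was -1.75, against p1 columns 13 to 24 it was 0.31 and against p1 columns 1 to 12 it was 1.28, so no direction holds between tissues. A few cells carried much of the mean in every set, with 64.7%, 78.6%, 50.4% and 48.5% of the Bcl2 CPM in the 5 highest cells, lowest in p2. In p1 columns 13 to 24, 3.85% of the 26 cells with a Foxp3 read and 21% of the others had 10 Bcl2 reads. In p1 columns 1 to 12 the shares were 7.06% of 85 and 8.33% of 48.

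Counting the pro-survival genes together, 6.57%, 13.5%, 13.1% and 6.56% of cells had 10 reads of none of Bcl2, Bcl2l1 and Mcl1, and 51.1%, 42.9%, 45.5% and 39.3% had Mcl1 alone. Bcl2l11 was accompanied by Mcl1 in 54.7% of small intestine cells (46% to 63.3%) and in 30.1%, 20.7% and 28.7% of spleen cells. These joint shares follow in part from the share of each gene alone, and shares expected without a link were not computed. Within sets, Spearman correlations between Bcl2l11 and Mcl1 were 0.09, 0.16, -0.03 and -0.08. Bcl2l11 was found without any of the 3 pro-survival genes in 4, 5, 6 and 2 cells. A cell held on average 4.46 of the 10 genes in small intestine (SD over cells 1.5) and 3.96, 4.02 and 4.16 in spleen. Of the 45 pairs among the 10 genes, 0 correlated at 0.1 or more, or at -0.1 or less, in all 4 sets, and the 180 coefficients ran from -0.33 to 0.24. The gene most like Fasl was Slamf7, with a mean Spearman correlation of 0.27 over the 4 sets, and no gene reached 0.3 with any of the 10.

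Tcf7 encodes TCF-1, a factor of naive, central memory and stem-like T cells, and served as a reference gene. Whether the cells with Tcf7 reads were resting was not tested. Only 2 small intestine cells had 10 Tcf7 reads, so its relations are described in spleen, where 27, 48 and 82 cells did. Bcl2 went with Tcf7 in each spleen set, with Spearman correlations of 0.26, 0.18 and 0.31 over the kept cells. Bcl2l1 went against it, at -0.20, -0.17 and -0.29, and so did Cflar, at -0.13, -0.14 and -0.13, but with cells thinned to 200000 reads Cflar had -0.06 in p2. Of all tested genes, 2.66% reached 0.1 in all 3 sets and 5.35% reached -0.1. At least 10 Bcl2 reads were found in 18.5% of cells with 10 Tcf7 reads and in 4.72% of the others in p1 columns 1 to 12, in 22.9% and 15.5% in p1 columns 13 to 24, and in 42.7% and 20% in p2. For Bcl2l1 the same shares were 22.2% and 42.5%, 20.8% and 34%, and 18.3% and 40%. The anti-apoptotic pair thus lay on opposite sides of Tcf7, within sets that share a tissue and plate. Exact intervals of the paired shares overlapped in every one of these comparisons. Fas had correlations of 0.23, 0.10 and 0.13 with Tcf7, the second just under 0.1 before rounding, and 0.22, 0.14 and 0.15 after thinning. Fasl had 0.02, -0.14 and -0.21. With cells holding a Foxp3 read left out it had -0.12, -0.25 and -0.23, which pass in all 3 sets. Bcl2 also correlated with the total reads of a cell at -0.34 in p2, and Tcf7 at -0.13. With cells thinned to 200000 reads, the correlations of Bcl2 with Tcf7 were 0.27, 0.13 and 0.32.

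**Figure D4:**
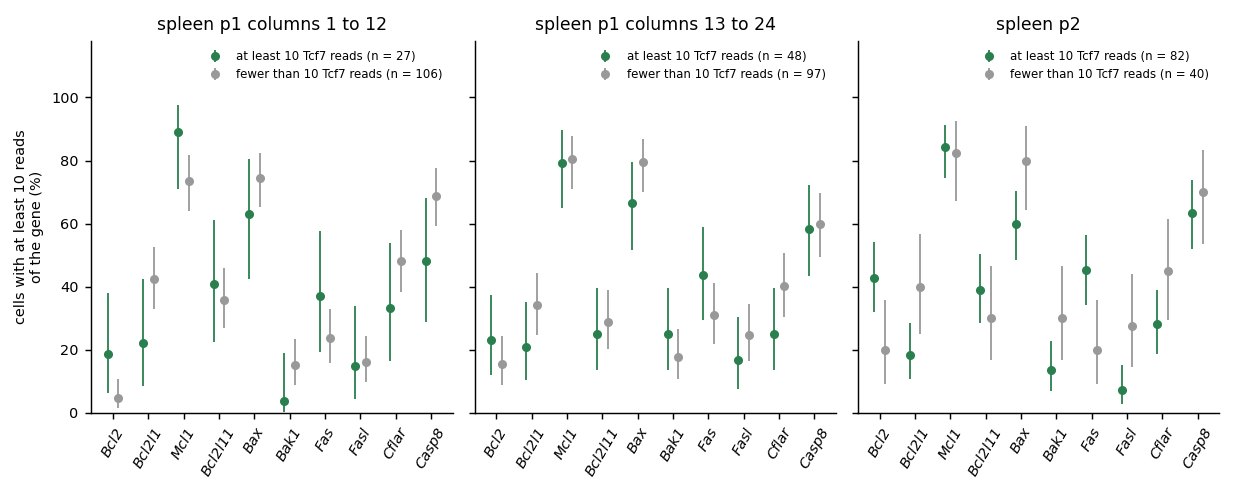
Share of cells with at least 10 reads of each gene (percent) in spleen cells with at least 10 Tcf7 reads (green) and with fewer (grey), for each spleen set, with exact binomial 95% intervals as bars. Bcl2 is higher and Bcl2l1 lower in the green points of all 3 panels, for example 42.7% against 20% and 18.3% against 40% in p2.

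Gzmb, which encodes the cytotoxic protease granzyme B, gave no relation at 0.1 or beyond with 1 sign in all 4 sets, with all reads and all kept cells. Small intestine cells had at least 10 Gzmb reads in 89.8% of cases and spleen cells in 39.8%, 33.8% and 26.2%. None of the 10 genes correlated with it at 0.1 or beyond with 1 sign in every set, where 1.06% of tested genes did upward and 0.419% downward. Bak1 had 0.23, 0.27, 0.06 and 0.20, and after thinning to 200000 reads 0.25, 0.21, 0.11 and 0.16, which pass in all 4 sets. Cflar passed in all 4 when cells with a Foxp3 read were left out, at 0.11, 0.12, 0.37 and 0.17. Fas had 10 reads in 13.2% of the 53 cells with 10 Gzmb reads and in 35% of the 80 others in p1 columns 1 to 12. The shares were 24.5% and 40.6% in p1 columns 13 to 24 and 34.4% and 37.8% in p2. In small intestine they were 9.76% and 7.14%. Correlations of Fas with Gzmb were -0.18, -0.11 and -0.13 in spleen but 0.13 in small intestine. Bcl2l11 had 10 reads in 64.2% of small intestine cells with 10 Gzmb reads and in 14.3% of the 14 others, while the spleen shares were 39.6% and 35%, 28.6% and 27.1%, and 34.4% and 36.7%. Bcl2l1 had 10 reads in 50% of the 32 spleen p2 cells with Gzmb and in 16.7% of the 90 others. In the p1 sets its shares were 45.3% and 33.75%, and 30.6% and 29.2%. In small intestine they went the other way, at 30.9% and 50% of the 14 others. Its correlations with Gzmb were -0.20 in small intestine and 0.13, 0.04 and 0.19 in spleen.

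Mki67 marks cycling cells and was read with cycling cells included. Again none of the 10 genes passed 0.1 with 1 sign in all 4 sets, where 10.3% of tested genes did upward and 0.490% downward. Bcl2l1 had correlations of 0.19 and 0.18 in the p1 sets, with 10 reads in 58.3% against 33.3% and 46.3% against 25.6% of cells with and without 10 Mki67 reads. In small intestine and p2 its correlations were 0.00 and 0.07.

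Other genes of the pathway were read from a list of 63, all with a row, of which 47 passed the filter. Of these 47, 7 were higher and 3 lower than every spleen set by the 2-fold rule, beside 6.21% and 7.12% of all tested genes. A further count found 16 above and 18 below all spleen means, beside 24.9% and 44.2% of all tested genes. The median centred log2 ratio of the 47 was 0.00. Among the other BCL2 family genes, Pmaip1, which encodes the BH3-only protein NOXA, averaged 155.2 CPM in small intestine and 22.8, 16.1 and 21.2 CPM in spleen. Bid, the BH3-only protein that caspase-8 cleaves, averaged 9.98 CPM in small intestine and 78.7, 55.6 and 61.9 CPM in spleen. Some of these means rest on few cells. Pmaip1 had 10 reads in 35%, 9.77%, 6.21% and 6.56% of cells and Bid in 2.92%, 26.3%, 17.9% and 18.9%. The Bcl2a1 paralogs are near-identical, so reads may be split between them and their values are uncertain. Of the death receptors, ligands and adaptors, Tnfsf10, which encodes the death ligand TRAIL, averaged 161.4 CPM against 38.5, 67.3 and 33.2 CPM, and the TNF receptor gene Tnfrsf1a 93.3 CPM against 52, 27.2 and 47.4 CPM. Without centring, the log2 ratios of Tnfrsf1a were 0.83, 1.74 and 0.96, so its place among the 7 higher genes depends on the centring. The death receptor gene Tnfrsf25 was lower, at 10.4 CPM against 25.4, 60.3 and 47.3 CPM, as was Fadd, the adaptor that joins FAS to caspase-8, at 5.53 CPM against 14.3, 27.6 and 46.8 CPM. Tnfrsf25 had 10 reads in 5.84%, 11.3%, 20% and 23.8% of cells and Fadd in 5.11%, 14.3%, 12.4% and 18%. The small intestine means of Bid and Fadd lay under 10 CPM, and both genes passed the filter through their spleen means. Apaf1, the scaffold of the apoptosome, averaged 140.996 CPM against 53.3, 53 and 41.7 CPM. Birc2, an inhibitor of apoptosis, averaged 177.03 CPM against 52.9, 87.9 and 64.4 CPM. The survival kinase gene Pim1 averaged 48.2 CPM against 19.5, 19 and 12.5 CPM. Cdkn1a, the cell cycle inhibitor of the p53 arm, averaged 275.9 CPM against 34.2, 57.3 and 42 CPM. Genes that promote and genes that restrain cell death were both among the 7 that were higher.

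**Figure D5:**
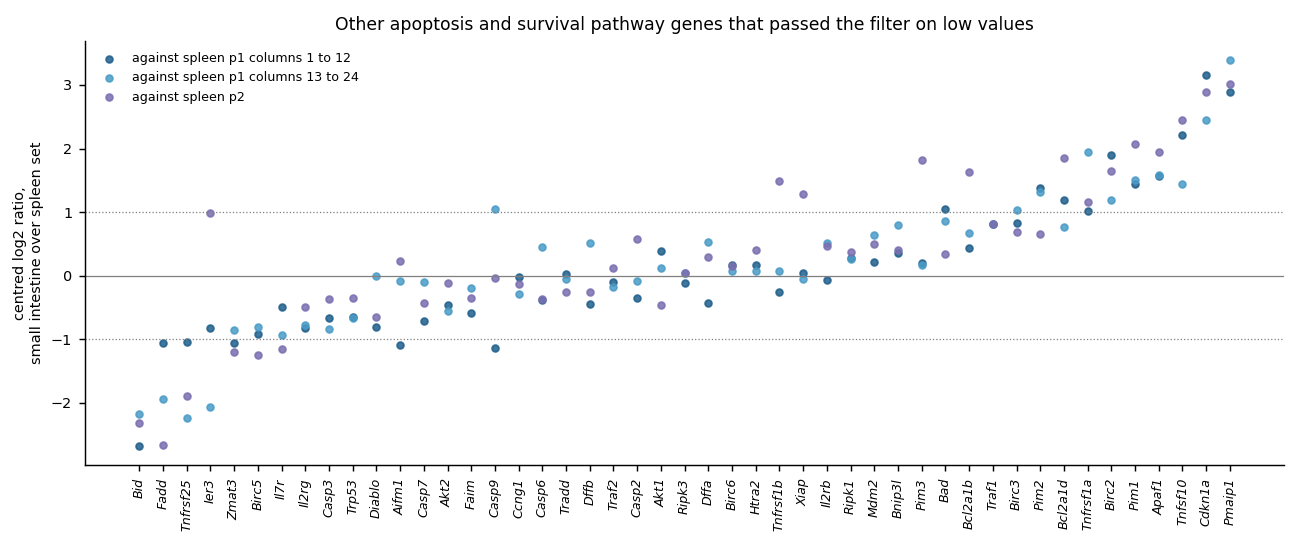
Centred log2 ratio of small intestine mean CPM over each of the 3 spleen sets (colours) for the 47 other pathway genes that passed the filter, ordered by the ratio over all spleen cells. A total of 7 genes lie above 1 against every set, with Pmaip1 at the right end, and 3 lie below -1, with Bid at the left end.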

How the data were processed

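Whole-number read counts per gene and cell were deposited by the authors, 1 table per tissue. SMART-seq2 read pairs were aligned with STAR, the methods naming an older mouse build (Mm8) and the submitters' processing notes mm10; the counting tool is not given in the sources used here. The eGFP row was left out of totals. After the study's methods, cells over 3 median absolute deviations below the tissue's median log reads or log genes were removed (50 of 764), with no filter on mitochondrial share, unlike the study, and so were 177 cells that the cyclone classifier (scran 1.30.0, R 4.3.3) placed in S or G2M, leaving 137 small intestine and 133, 145 and 122 spleen cells. None of the 10 genes is among the cyclone markers (0). Kept cells hold 162801 to 622997 reads. Doublets were not called; each well was sorted as 1 cell.

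CPM, means, shares and correlations were computed in Python 3.11.15 (numpy 2.4.6, pandas 2.3.3, scipy 1.17.1), with log2 ratios of mean CPM + 1 centred on the median of the 8360 tested genes (uncentred medians -0.18, -0.20 and -0.20). Ratios, calls and correlations were tested on simulated data. Alternatives were TMM (edgeR 4.0.16) or DESeq2-type factors, other pseudocounts and filters, thinning to 200000 reads and left-out cells or sets. Shares carry Clopper-Pearson and sums exact Poisson 95% intervals. All 10 genes are named, pathway genes where called, up to 12, and similar genes from a mean correlation of 0.3; Slamf7 was named after its value was seen. Members and lists were chosen with earlier results of these data known.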

Additional observations from a re-analysis of the deposited data

How the results depend on the processing

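Fasl, Bcl2l11 and Fas were past the 2-fold limit, with the same direction, under each of the 15 alternatives. Their log2 ratios over the spleen cells used were 2.21 to 3.21, 1.37 to 1.81 and -2.84 to -1.76. The ratios were centred except where centring was dropped or replaced by TMM or DESeq2-type factors. Plate p2 alone gave 4 such genes, adding Bcl2 at -1.75, while the share called over all genes went from 13.3% to 24.8%. The Bcl2 ratio was -0.54 with all spleen cells and 0.70 without p2. Ratios near 0 changed sign for Casp8, to -0.07 without centring or without the gene filter, and for Bak1, to 0.03 with the 5 highest cells of each set left out, an alternative chosen after seeing the data. The number of genes outside the range of the spleen means was 6 under every alternative run; without Foxp3-read cells it counted 4 above and 2 below, with Bcl2l1 in and Bak1 out. The number of genes whose share interval lay outside all spleen intervals was 3, and 1 (Fasl) both at a limit of 1 read, where the cause was not tested, and without Foxp3-read cells, where p1 columns 1 to 12 held 48 cells and wider intervals. Relations at 0.1 or beyond with 1 sign in each set used numbered 3. They numbered 5 both without Foxp3-read cells and with Pearson correlation of log2(CPM + 1). Thinning gave 4, with Cflar no longer among them. The mean number of genes per small intestine cell was 4.46, 5.54 at 1 read and 4.2 after thinning. In the alternative with no limit on reads or genes, shallow cells entered without a cell cycle call. No paired analysis was possible because the labels carry no replicate numbers and each sample is 1 cell. With 1 sample per tissue, no interval here covers variation between animals, and a count of 0 cells allows a share of up to 2.07% to 2.46% in a set.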

Other observations

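Cells called S or G2M, which were left out of the comparisons above, numbered 34 in small intestine and 47, 39 and 57 in the spleen sets. Their median totals were 319406, 357251, 338866 and 325632 reads. Mean Bcl2l11 was 157.6 CPM in them and 427.5 CPM in G1 cells of small intestine, and 45.7 against 164.8, 148.3 against 163.1 and 129.7 against 168.4 CPM in spleen. The shares of cells with at least 10 Bcl2l11 reads did not all follow, at 52.9% against 59.1% in small intestine and 46.2% against 27.6% in p1 columns 13 to 24. Mean Fas was 27.3 CPM in both phases in small intestine and lower outside G1 in each spleen set, at 52.4 against 101.3, 48.1 against 141.8 and 71.6 against 153.7 CPM, while its shares were 27.7% against 26.3%, 28.2% against 35.2% and 35.1% against 36.9%. Casp8 had 10 reads in a larger share of S or G2M cells in every set, at 88.2% against 63.5% in small intestine and 74.5% against 64.7%, 74.4% against 59.3% and 75.4% against 65.6% in spleen, with means that were not higher (268.4 against 270.9 CPM in small intestine). This was not particular to Casp8. Bcl2l1 shares were also larger in every set, at 35.3% against 32.8% in small intestine and 57.4% against 38.3%, 46.2% against 29.7% and 26.3% against 25.4% in spleen. Bcl2 shares were larger too, by little in p1 columns 13 to 24 (17.95% against 17.93%), and the remaining genes went both ways between sets. The split by phase was not made over all genes.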
